A study of Mus musculus with 25 samples.

Results

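Transcripts of 10 glycolysis genes were followed through 25 RNA-seq libraries of mouse white adipose tissue. The members were chosen by symbol, from a list of glucose uptake and glycolytic enzyme genes, as *Slc2a1*, *Hk2*, *Hk3*, *Pfkl*, *Pfkp*, *Aldoa*, *Pgk1*, *Eno1*, *Pkm* and *Ldha*. They are 10 of the 54752 genes in the count tables, and all 10 passed the filter on low counts in both depots. The symbol *Aldoa* stood on 2 rows, of which ENSMUSG00000030695 was used. The other row, ENSMUSG00000114515, stayed near 0 in every group, with group means between 0.0945 and 0.287 CPM, the read count scaled to a common library size.

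Glycolysis splits glucose into pyruvate and yields ATP and NADH without oxygen. In fat cells it also supplies glycerol 3-phosphate for triglyceride storage and carbon for new fatty acids, and glucose enters these cells chiefly through the insulin-responsive transporter GLUT4. Macrophages and other leukocytes that settle in obese fat use glycolysis as well, through partly different isoenzymes, so that a bulk tissue library mixes the pathways of several cell types.

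The libraries came from male C57BL/6N mice in 6 groups. The study's figure captions count as many mice in each group as there are libraries. Neither the labels nor the methods say whether a mouse gave both depots, and p-values measure the spread between these libraries. Epididymal fat (eWAT) was taken from 4 wild type mice on normal chow (WT ND), 5 wild type mice on a high-fat diet (WT HFD) and 5 Acod1-/- mice on HFD, and inguinal fat (iWAT) from 3, 5 and 3 mice of the same groups. Fat made up 60% of the energy of the HFD, which was fed for 16 weeks from 5 weeks of age, with labels of 17 and 18 weeks on iWAT Acod1-/- replicates 2 and 3. Acod1-/- is a whole-body deletion of the enzyme that makes itaconate, carried from the embryo in every cell, and no Acod1-/- mouse on chow was sequenced, so that genotype is compared on HFD alone. Mice were individually caged littermates from Acod1+/- parents.

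Between 31.4 and 52.3 M reads per library fell on genes. *Acod1* reached at most 9 counts in a wild type library and at most 2 in an Acod1-/- library, so its counts do not check the genotypes. The numbers in the column headers fall into 2 ranges, one of 14 libraries and one of 11, called series 1 and 2 here, and the headers do not say what the ranges stand for. All ND libraries are in series 2, with only 4 HFD libraries, so that diet and series can barely be told apart. Adipocyte markers were abundant in every library, with a summed level of 8 markers from 20100 to 51100 CPM. Transcripts of other tissue, and of brown and beige adipocytes, stood out in some libraries. Skeletal muscle markers summed to 8607 CPM in iWAT WT ND replicate 1, against at most 471 CPM elsewhere. Brown and beige adipocyte markers summed to 181, 458 and 1350 CPM in iWAT WT ND, with replicate 3 the highest, and to at most 310 CPM in any other group. Epididymis markers summed to 7739 CPM in eWAT WT ND replicate 2 and 1060 CPM in eWAT Acod1-/- replicate 5, against at most 146 CPM elsewhere. Epithelial markers summed to 531 CPM in iWAT Acod1-/- replicate 2. T and B cell markers summed to 1038, 1505 and 1113 CPM in iWAT WT ND, and to at most 1084 CPM in any other group. How the single T and B cell markers differed is given below.

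The members covered a wide range of abundance. On the deposited per-length scale (FPKM), averaged over the 25 libraries, *Aldoa* was highest with 570.0, followed by *Ldha* with 231.5, *Pkm* with 85.1, *Eno1* with 84.3, *Pgk1* with 62.8, *Hk2* with 20, *Pfkl* with 17.5, *Pfkp* with 6.62, *Slc2a1* with 4.16 and *Hk3* with 3.57. *Pkm* and *Eno1* are neighbours whose ranges over libraries, 48.2 to 170 and 54.4 to 165 FPKM, overlapped almost wholly. The other 9 genes moved little between groups: the highest group mean in CPM was 1.28 times the lowest for *Ldha* and 1.87 times the lowest for *Slc2a1*. For *Hk3* it was 12.6 times.

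*Hk2* and *Hk3* encode enzymes of the same first step, the phosphorylation of glucose. Hexokinase 2 is the insulin-regulated form of muscle and fat, and hexokinase 3 is a form found mainly in myeloid cells. Since their levels went apart in these libraries, the 250 bases before the start site of each are shown (RefSeq, GRCm38.p6, 5′ to 3′ on the gene's strand). *Hk2* is at chr6:82774455-82774704 on the minus strand and *Hk3* at chr13:55021386-55021635 on the minus strand. Capitals mark the core of the hypoxia response element (ACGTG or GCGTG, either strand) in *Hk2* and the core of the site of PU.1, a transcription factor of myeloid cells (GAGGAA, either strand), in *Hk3*.
Hk2: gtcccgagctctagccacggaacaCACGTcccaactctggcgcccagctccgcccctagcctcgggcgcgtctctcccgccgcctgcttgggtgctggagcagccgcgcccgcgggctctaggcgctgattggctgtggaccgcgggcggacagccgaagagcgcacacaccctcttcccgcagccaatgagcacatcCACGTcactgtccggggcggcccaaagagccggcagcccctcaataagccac
Hk3: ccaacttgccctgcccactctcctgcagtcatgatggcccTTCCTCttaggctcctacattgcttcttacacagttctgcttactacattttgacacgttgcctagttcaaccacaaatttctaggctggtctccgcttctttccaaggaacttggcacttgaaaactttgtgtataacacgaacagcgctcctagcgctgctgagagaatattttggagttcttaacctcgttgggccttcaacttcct
The PU.1 letters began 210 bases before the start of *Hk3* and did not occur in this window of *Hk2*. They were found in 23.3% of 32851 promoter windows of this length, and among the members in *Hk3* and in 1 window of *Aldoa*. The hypoxia core was found in 38.6% of all windows and in at least 1 window of all 10 members, *Hk3* included, where 1 match began 156 bases before the start. A window of *Aldoa* and a window of *Pkm* held none. The first share is per window and the other per gene, so that they cannot be set against each other. These members have 16 windows between them, since some have several start sites. Both strands were searched, and ACGTG and its reverse complement CACGT overlap in CACGTG. A match is a run of letters and no measurement of binding.

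The members the results turn on lie, in GRCm38, at chr4:119108711-119137983 on the plus strand (*Slc2a1*, ENSMUSG00000028645), chr13:55005985-55021385 on the minus strand (*Hk3*, ENSMUSG00000025877), chr13:6579768-6648777 on the minus strand (*Pfkp*, ENSMUSG00000021196) and chr9:59656368-59679375 on the plus strand (*Pkm*, ENSMUSG00000032294). Counts are per whole gene, so that the spliced forms of *Pkm* were not separated.

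The effect of HFD on these genes was asked first in eWAT of wild type mice. *Hk3* and *Pfkp* rose, *Slc2a1* fell, and the other 7 members did not pass the test (edgeR's quasi-likelihood test, Benjamini-Hochberg adjusted p under 0.1 over 14936 genes). In this comparison 24.8% of all genes were called higher and 26.9% lower, so that 2 members higher and 1 lower of 10 is no more than the share among all genes. The median log2 fold change of the members was 0.19, against -0.04 over all genes tested.

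*Slc2a1* encodes GLUT1, the transporter of basal glucose uptake. It stood at 18.8, 16.7, 20.2 and 18.2 CPM in the WT ND libraries of eWAT and at 15.5, 14.2, 11.7, 11.02 and 15.02 CPM in the WT HFD libraries. The groups did not overlap, with every HFD library below every ND library. Its log2 fold change was -0.45 ± 0.20 (SE, edgeR adjusted p = 0.081). It was called in 13 of 23 alternatives, and losses included those without eWAT WT ND replicate 1, 3 or 4 or WT HFD replicate 3 or 4, under a threshold of 0.05, with no filter on low counts, with series as a term, and without the libraries that hold epididymis transcripts.

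*Hk2* had a lower mean on HFD, within its spread. Its levels were 92.1, 135, 108 and 133 CPM on ND and 60.1, 87.6, 112, 75.9 and 134 CPM on HFD, and these ranges overlapped. The log2 fold change was -0.32 ± 0.25 (SE, edgeR adjusted p = 0.318).

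*Hk3* stood at 8.73, 2.46, 4.98 and 2.4 CPM on ND. On HFD it reached 88.4, 44.3, 23.3, 33.9 and 21.6 CPM. Every HFD library was above every ND library, with means of 42.3 ± 27.4 CPM (SD, n = 5) and 4.64 ± 2.98 CPM (SD, n = 4). This gave a log2 fold change of 3.19 ± 0.74 (SE, edgeR adjusted p = 0.0047), and the gene was called under all 23 alternatives, with adjusted p from 5.46e-05 to 0.0179. Beside it, all 12 macrophage markers were called higher, and their sum went from 586 to 1143 CPM on ND to 2467 to 7496 CPM on HFD. How much of the *Hk3* difference goes with macrophage number was not tested, and in a bulk library more cells of a type and more RNA per cell cannot be told apart.

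*Pfkl* and *Pfkp* encode the liver-type and platelet-type subunits of phosphofructokinase, the committed step of glycolysis. *Pfkp* stood at 86.1, 67.0, 63.9 and 68.9 CPM on ND and at 84.5, 103, 99.9, 105 and 93.8 CPM on HFD. All HFD libraries but replicate 1 were above all ND libraries. On the log2 scale the change was 0.44 ± 0.13 (SE, edgeR adjusted p = 0.0154), and with series as a term the adjusted p was 0.115. *Pfkp* overlaps *Pitrm1* on the other strand over 748 of its 69010 bases. *Pfkl* had a log2 fold change of 0.16 ± 0.20 (edgeR adjusted p = 0.529).

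Of the later enzymes of the pathway, none passed the test in eWAT on HFD. *Aldoa*, which cleaves fructose bisphosphate, had the largest difference, with 984, 987, 1255 and 1702 CPM on ND and 1333, 1417, 1726, 1738 and 2071 CPM on HFD. Its log2 fold change was 0.43 ± 0.26 (SE, edgeR adjusted p = 0.199). *Pgk1* and *Eno1*, the kinase and the dehydratase that follow, had log2 fold changes of 0.14 and 0.22. *Pkm*, which makes pyruvate, had 0.27 and *Ldha*, which turns it into lactate, 0.15.

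**Figure D1:**
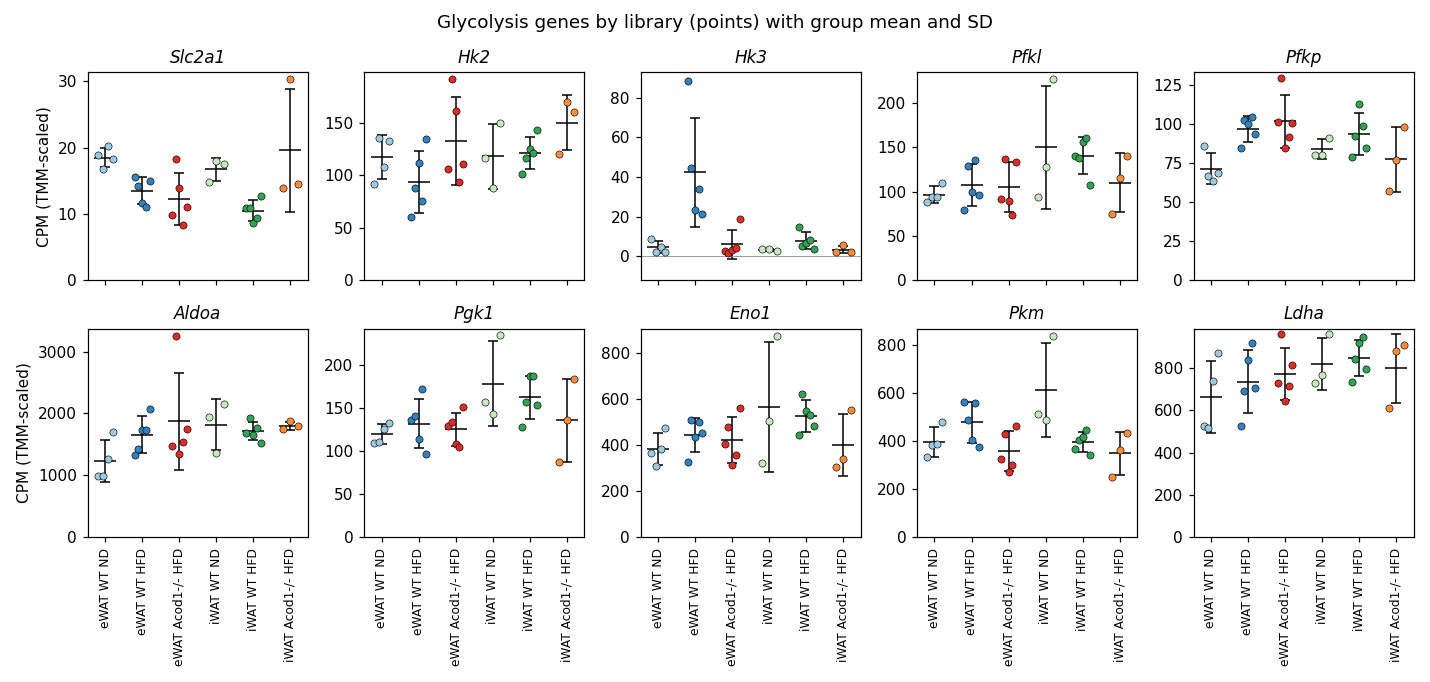
CPM of each of the 10 genes (y axis, linear, TMM-scaled) in the 6 groups (x axis), with 1 point per library and bars for the group mean and SD. *Hk3* in eWAT WT HFD stands at 42.3 ± 27.4 CPM, apart from the 5 other groups, whose means lie between 3.36 and 7.88 CPM, while for the other genes the groups mostly overlap.

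Loss of *Acod1* was compared within HFD in eWAT. *Hk3* was the only member called, and it fell. In this comparison 9.13% of all 14936 genes were called higher and 10.8% lower, against 0 and 1 of the 10 members. *Hk3* stood at 2.92, 1.498, 3.28, 4.05 and 18.9 CPM in Acod1-/- mice, all below the lowest WT HFD library of 21.6 CPM. The log2 fold change was -2.78 ± 0.67 (SE, edgeR adjusted p = 0.0201), and all 24 alternatives called it, with adjusted p from 0.00077 to 0.0547. Acod1-/- replicate 5, the highest of its group, also had the highest macrophage marker sum, 2190 CPM, against 603 to 989 CPM in the other 4, and all 12 macrophage markers were called lower in Acod1-/- mice.

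Set against the macrophage markers, the ranges of *Hk3* overlapped between the groups. Per 1000 CPM of the 12 summed markers, *Hk3* stood at 4.06 to 7.63 CPM in eWAT WT ND, 6.06 to 11.8 CPM in WT HFD and 2.23 to 8.62 CPM in Acod1-/- HFD. In iWAT the ranges were 4.54 to 5.78, 4.76 to 8.82 and 3.72 to 10.7 CPM. In eWAT, Acod1-/- replicates 1 to 4, at 2.95, 2.23, 5.43 and 4.51 CPM, were below every WT HFD library. Only Acod1-/- replicate 5, at 8.62 CPM, lay within the WT HFD range. These ratios are a description, with no test. *Hk3* overlaps *Unc5a* on the other strand over 34 of its 15401 bases, and *Unc5a* had 22.8 CPM in eWAT WT HFD and 30.1 CPM in Acod1-/- HFD.

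**Figure D2:**
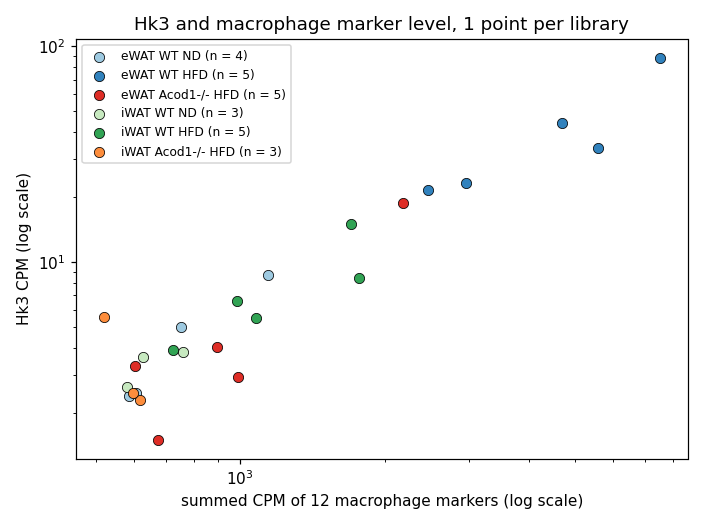
*Hk3* in CPM (y axis, log scale) against the summed CPM of 12 macrophage markers (x axis, log scale), 1 point per library, coloured by group. The 5 eWAT WT HFD libraries lie at 2467 to 7496 CPM of markers and 21.6 to 88.4 CPM of *Hk3*, and the nearest other point is eWAT Acod1-/- replicate 5 with 2190 and 18.9 CPM.

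*Hk2* had a higher mean in Acod1-/- eWAT, at 106, 192, 161, 93.5 and 111 CPM, but the ranges overlapped. Its log2 fold change was 0.50 ± 0.24 (SE, edgeR adjusted p = 0.181), and it was called without WT HFD replicate 5, which is the only WT HFD library of series 2, and in series 1 alone, where the value was 0.70.

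*Pkm* stood at 564, 486, 404, 559 and 375 CPM in WT HFD and at 324, 429, 272, 300 and 461 CPM in Acod1-/- HFD. Most Acod1-/- libraries were below the wild type libraries, and 2 lay within their range. This gave a log2 fold change of -0.42 ± 0.17 (SE, edgeR adjusted p = 0.124). It was called in 5 of 24 alternatives, among them DESeq2's Wald test, the fit of series 1 alone and the fit without Acod1-/- replicate 5. Its adjusted p ranged from 0.0361 to 0.262 over the alternatives.

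The remaining members were between -0.14 (*Slc2a1*) and 0.17 (*Aldoa*) on the log2 scale in this comparison, and none passed the test. *Aldoa* in Acod1-/- replicate 2 stood at 3255 CPM, with the 4 other libraries at 1346 to 1742 CPM.

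**Figure D3:**
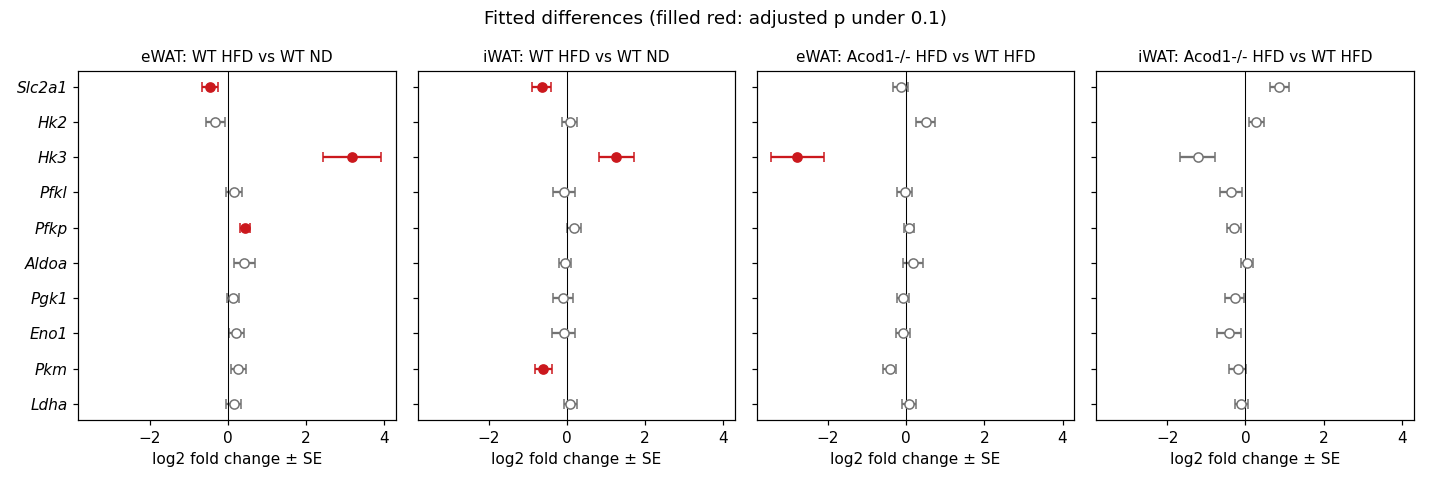
Fitted log2 fold changes with SE (x axis) of the 10 genes (y axis) in 4 comparisons, filled red where the adjusted p was under 0.1. In eWAT *Hk3* lies at 3.19 on HFD and at -2.78 with loss of *Acod1*, and in iWAT genotype no point is filled.

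Against ND-fed wild type mice, HFD-fed Acod1-/- mice differed in 2 members in eWAT. *Pfkp* was higher by 0.51 ± 0.13 on the log2 scale (SE, edgeR adjusted p = 0.0235) and *Slc2a1* lower, at -0.59 ± 0.20 (edgeR adjusted p = 0.0576). Among all genes 13.5% were called higher and 13% lower. With series as a term neither was called, with adjusted p = 0.153 for *Pfkp*. *Slc2a1* was called in 14 of 23 alternatives, and was also lost without ND replicate 3 or 4, without Acod1-/- replicate 1 or 4, at a threshold of 0.05, with no filter on low counts, without libraries that hold other tissue and with only these 2 groups in the fit (adjusted p from 0.0239 to 0.261 over the alternatives). *Slc2a1* was 9.78, 18.2, 13.98, 8.33 and 10.99 CPM in these Acod1-/- mice, so that 1 library reached the ND range. *Hk3* was 0.41 ± 0.68 on the log2 scale from ND (edgeR adjusted p = 0.695), with a sign that turned between alternatives, from -0.86 to 1.16.

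In iWAT of wild type mice the same question of diet gave another set. *Hk3* rose, and *Slc2a1* and *Pkm* fell. Of all 14801 genes tested, 25.9% were called higher and 24.2% lower, and the members, with 1 and 2 of 10, were not above that. These 3 calls were all lost without iWAT WT ND replicate 3, the library with the most brown adipocyte transcripts, and with series as a term. Leaving out ND replicates 1 and 3 together left replicate 2 alone in its group, so that this fit cannot decide.

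*Hk3* stood at 3.62, 3.83 and 2.64 CPM on ND and at 15.02, 5.49, 6.59, 8.42 and 3.89 CPM on HFD. The groups did not overlap, though the lowest HFD library was close to the highest ND library. On the log2 scale the change was 1.26 ± 0.45 (SE, edgeR adjusted p = 0.0434). Macrophage markers were called higher for 8 of 12, and their sum went from 581 to 759 CPM to 725 to 1767 CPM.

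*Slc2a1* stood at 14.8, 18.0 and 17.5 CPM on ND and at 10.9, 10.8, 8.56, 9.40 and 12.7 CPM on HFD. The HFD libraries were all lower. The log2 fold change was -0.64 ± 0.24 (SE, edgeR adjusted p = 0.0539), and the call was also lost at a threshold of 0.05 and without WT ND replicate 2 or WT HFD replicate 3.

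*Pkm* stood at 512, 486 and 839 CPM on ND and at 367, 403, 416, 446 and 340 CPM on HFD. The ND libraries were all higher, with replicate 3 far above the others. This gave a log2 fold change of -0.61 ± 0.22 (SE, edgeR adjusted p = 0.0437), and it was -0.33 without that library. In the same comparison 9 of 10 T and B cell markers, 8 of 9 skeletal muscle markers tested and 5 of 6 brown and beige adipocyte markers were called lower on HFD. The T and B cell markers had a median log2 fold change of -4.57, with 1 of 10 called higher. Their sum was 1038 to 1505 CPM on ND and 660 to 925 CPM on HFD. The part of these tissues in the *Pkm* difference was not tested.

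iWAT WT ND replicate 3 was also the highest of its group for the neighbours of *Pkm*. *Pfkl* there was 227 CPM against 93.9 and 128 CPM, *Pgk1* 236 CPM against 158 and 143 CPM, and *Eno1* 876 CPM against 321 and 504 CPM. None of the 3 was called, and their fitted differences on HFD, -0.07, -0.10 and -0.08 on the log2 scale, changed sign without this library. *Hk2*, *Pfkp*, *Aldoa* and *Ldha* had log2 fold changes of 0.07, 0.19, -0.06 and 0.08.

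Loss of *Acod1* called no member in iWAT, and edgeR called 0 of 14801 genes, 0% in each direction. At an unadjusted p under 0.05 there were 2 of 10 members, *Slc2a1* and *Hk3*, and 2468 of all genes, and DESeq2's Wald test called 1 member, *Slc2a1*, and 1072 genes. *Slc2a1* stood at 13.9, 30.3 and 14.5 CPM in Acod1-/- mice, all above the WT HFD range that ends at 12.7 CPM. Its log2 fold change was 0.87 ± 0.24 (SE, edgeR adjusted p = 0.153), and it was 0.44 without replicate 2 (adjusted p = 0.365). The highest of the 3, replicate 2, is the library with 531 CPM of epithelial markers, against at most 52.3 CPM in other iWAT libraries, and the part of that tissue was not tested. *Hk3* stood at 2.30, 5.57 and 2.48 CPM, with a log2 fold change of -1.22 ± 0.45 (SE, edgeR adjusted p = 0.215).

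Without Acod1-/- replicate 3, the only iWAT library of that genotype in series 2, *Slc2a1* and *Pfkp* were called, and in series 1 alone *Slc2a1*, *Pfkl* and *Eno1*. That fit rests on 2 Acod1-/- libraries. *Pfkl* was 74.5, 115 and 140 CPM and *Eno1* 304, 341 and 553 CPM in Acod1-/- mice, with replicate 3 the highest for both, and their log2 fold changes over all libraries were -0.37 ± 0.29 and -0.41 ± 0.30 (SE, edgeR adjusted p = 0.548 and 0.524).

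HFD-fed Acod1-/- against ND-fed wild type mice in iWAT called *Pkm* alone, with 251, 362 and 432 CPM, all below ND. On the log2 scale the change was -0.81 ± 0.25 (SE, edgeR adjusted p = 0.034), while 18.5% of all genes were called higher and 16.1% lower. It was not called with series as a term, without iWAT WT ND replicate 3, or with only these 2 groups in the fit. Of 10 T and B cell markers, 9 were called lower and 1 higher here, with a median of -6.01 on the log2 scale. Their part in the *Pkm* difference was not tested.

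Depots were compared over 15034 genes with the 25 libraries fitted together. On ND, *Pfkl*, *Pgk1* and *Pkm* were lower in eWAT than in iWAT, with log2 differences of -0.63 ± 0.26, -0.57 ± 0.22 and -0.63 ± 0.22 (SE, edgeR adjusted p = 0.0844, 0.0604 and 0.039). Of all genes 17.5% were called higher in eWAT and 14.2% lower. For *Pgk1*, eWAT held 110, 111, 126 and 133 CPM and iWAT 158, 143 and 236 CPM, without overlap. No member was called without iWAT WT ND replicate 3 or without eWAT WT ND replicate 1. The set without the 4 libraries left out for other tissue held only replicate 2 of iWAT WT ND, so that it cannot decide. Markers called lower in eWAT here were 9 of 10 for T and B cells, 9 of 9 for skeletal muscle and 6 of 6 for brown and beige adipocytes. The T and B cell markers had a median of -6.09 on the log2 scale, and the part of these cells was not tested.

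In WT HFD, *Hk3* was higher in eWAT by 2.42 ± 0.59 on the log2 scale (SE, edgeR adjusted p = 0.0094), with 10.8% of all genes called higher and 7.75% lower. Every eWAT library was above every iWAT library, and all 33 alternatives called it. All 12 macrophage markers were called higher in eWAT here too. In Acod1-/- HFD no member was called by edgeR, with 2 at an unadjusted p under 0.05, *Slc2a1* and *Pfkp*, and 0 by DESeq2, while 2.01% of genes were called higher and 1.8% lower.

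The effect of diet differed between depots for *Pkm*, which was the only member called for this interaction (14% of genes called higher in eWAT, 15% lower). It was 0.27 on the log2 scale in eWAT and -0.61 in iWAT, and the fitted interaction was 0.90 ± 0.28 (SE, edgeR adjusted p = 0.0266). Without iWAT WT ND replicate 3 it was 0.61 and not called. In the same test 9 of 10 T and B cell, 6 of 9 skeletal muscle and 6 of 6 brown and beige adipocyte markers were called higher. The T and B cell markers had a median of 5.37, and the part of these cells was not tested. For *Hk3* the interaction was 1.9596 ± 0.88 (SE, edgeR adjusted p = 0.118). The effect of genotype differed between depots for no member by edgeR, with 1, *Slc2a1*, at an unadjusted p under 0.05 (-1.04 ± 0.31, SE) and 0 by DESeq2, while 1 gene of 15034 was called lower, 0.00665%, and 0% higher.

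The isoenzyme makeup of each step was described by the share of a member in the summed FPKM of its family, in percent. Two-sided exact permutation tests compared 8 shares in 4 comparisons, 32 tests in all with Benjamini-Hochberg adjusted values, and 12 had an adjusted p under 0.1. None had one under 0.05, and with shares of counts in place of FPKM only 3 calls were left, all for genotype in eWAT. With 3 libraries against 5 the smallest p an exact test can give is 0.0357.

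Among hexokinases, *Hk3* took 10.2%, 2.33%, 5.48% and 2.44% of the family FPKM in eWAT WT ND. It took 62.0%, 37.4%, 22.55%, 34.9% and 18.45% in WT HFD, and 3.605%, 1.13%, 2.85%, 5.22% and 17.8% in Acod1-/- HFD. In WT HFD replicate 1 *Hk3* was therefore the most abundant hexokinase transcript per length, while *Hk2* was so in the other 13 eWAT libraries. The share of *Hk3* rose by 29.9 percentage points with diet (exact permutation p = 0.0159, adjusted 0.0847) and differed by -28.9 points with genotype (exact permutation p = 0.00794, adjusted 0.0847). *Hk2* was at 75.5% ± 7.42 of the family on ND (SD, n = 4), 51.5% ± 18.1 on HFD (n = 5) and 79.2% ± 9.94 in Acod1-/- mice (n = 5), and was called for genotype (exact permutation p = 0.0238, adjusted 0.0952) but not for diet (exact permutation p = 0.0476, adjusted 0.109).

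*Ldha* was called in all 4 comparisons. Its share of *Ldha* and *Ldhb* together went from 80.4% ± 2.63 on ND to 90.3% ± 2.48 on HFD and 83.5% ± 2.29 in Acod1-/- mice in eWAT (SD, n = 4, 5 and 5). In iWAT it went from 79.2% ± 3.53 to 88.5% ± 3.16 and 80.4% ± 2.15 (SD, n = 3, 5 and 3). The groups on either side of HFD did not overlap with it. *Ldha* itself did not pass the test in any of these comparisons, while *Ldhb*, the heart-type subunit, fell with diet by 0.996 in eWAT and by 0.97 in iWAT on the log2 scale (edgeR adjusted p = 0.0024 and 0.0098), rose by 0.94 with genotype in eWAT (adjusted p = 0.0136) and was at 0.77 in iWAT (adjusted p = 0.173).

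*Slc2a1* likewise gained share of the glucose transporters on HFD in eWAT although its own level fell. It was 10.4% ± 2.07 on ND, 16.3% ± 6.07 on HFD and 6.92% ± 1.94 in Acod1-/- mice (SD, n = 4, 5 and 5), and both differences were called (exact permutation adjusted p = 0.0952 and 0.0847). *Slc2a4*, which encodes GLUT4, fell by 0.94 on the log2 scale on HFD and rose by 1.16 with loss of *Acod1* (edgeR adjusted p = 0.0344 and 0.0332). The family sum also holds *Slc2a3*, which likewise fell on HFD and rose with loss of *Acod1* in eWAT, with values given below.

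The platelet-type subunit *Pfkp* gained 7.004 points of share on HFD in eWAT, *Eno1* gained 5.23 points, and *Aldoa* gained 0.0513 points in iWAT, where it was above 99.9% of *Aldoa* plus *Aldoc* in every library. These were called (exact permutation adjusted p = 0.0847, 0.0952 and 0.0952). In iWAT WT ND replicate 1, the library with skeletal muscle, *Eno1* was 26.4% and *Pfkl* 13.8% of their families, against 84.6% and 88.35% and 57.1% and 62.05% in the other ND libraries, with the muscle isoenzymes *Eno3* and *Pfkm* taking most of the rest.

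**Figure D4:**
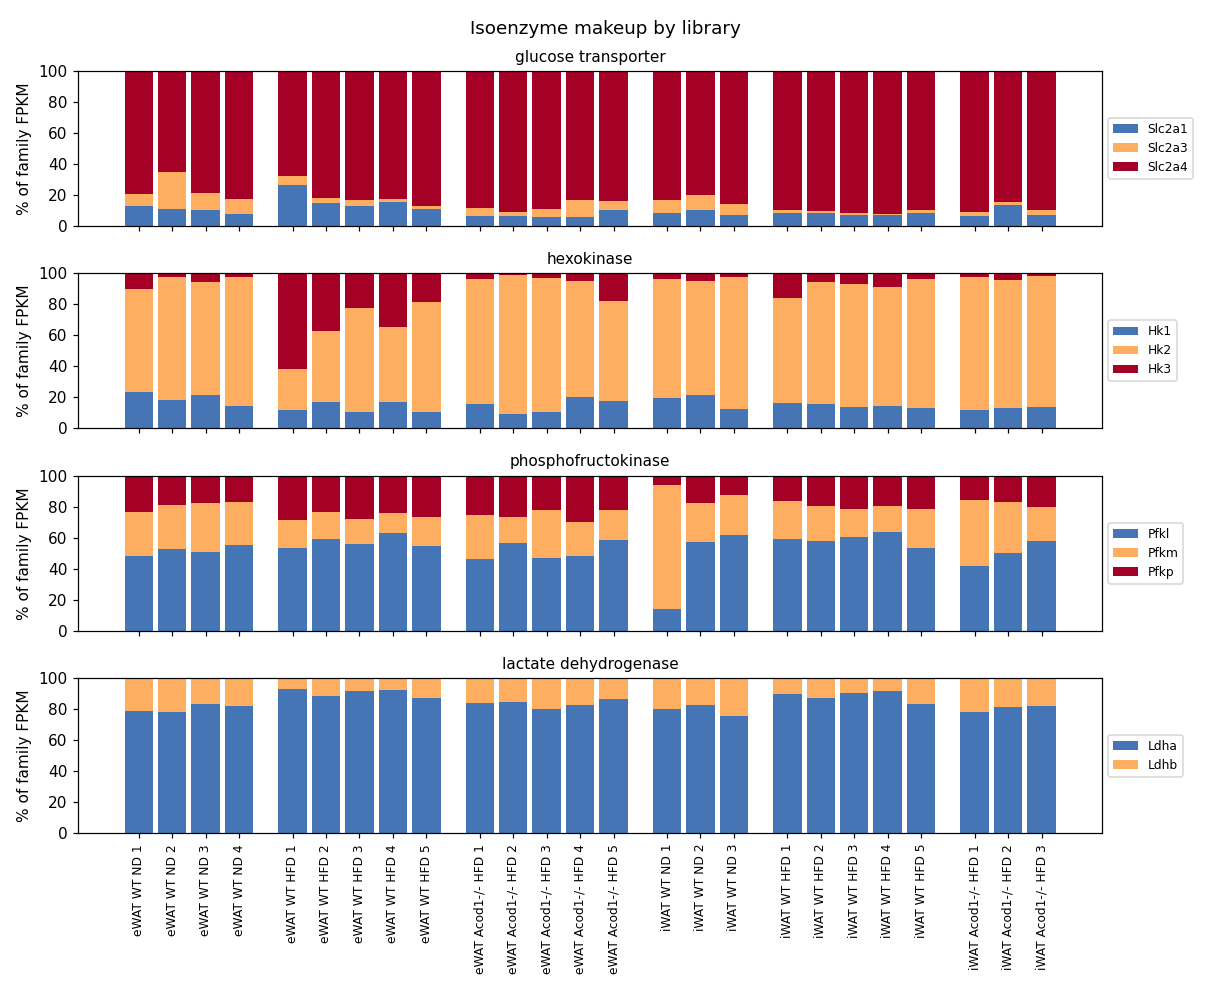
Share of each gene in the summed FPKM of its family (y axis, percent) in each of the 25 libraries (x axis), for glucose transporters, hexokinases, phosphofructokinases and lactate dehydrogenases. *Hk3* takes 18.45% to 62.0% in eWAT WT HFD, and *Pfkm* stands out in iWAT WT ND replicate 1, where *Pfkl* is 13.8%.

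A list of 25 other genes of glucose transport, glycolysis and lactate export was read beside the members. On HFD in eWAT 4 of 24 tested were called higher and 9 lower, beside 24.8% and 26.9% of all genes, with a median log2 fold change of -0.36 against -0.04 over all genes. *Slc2a3*, a high-affinity transporter of neurons and leukocytes, fell by 3.13 on the log2 scale, from 24.1, 78.7, 46.1 and 45.04 CPM to 6.73, 5.45, 6.43, 3.37 and 5.57 CPM (edgeR adjusted p = 0.00019). *Pfkfb4*, which makes the activator of phosphofructokinase, rose by 1.83 (adjusted p = 0.001), and *Pfkm*, the muscle-type phosphofructokinase, fell by 0.81 (adjusted p = 0.0019).

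With loss of *Acod1* in eWAT, 6 of these 24 were called higher and 3 lower, beside 9.13% and 10.8% of all genes. *Slc2a3* rose by 1.97 to 16.5, 14.8, 28.4, 35.5 and 12.6 CPM (edgeR adjusted p = 0.011), all above WT HFD. *Ldhb* is given above, and *Eno2*, the neuronal enolase, fell by 1.87 (adjusted p = 0.0195). The 2 eWAT comparisons share the WT HFD libraries.

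In iWAT on HFD 4 of 23 were called higher and 9 lower, beside 25.9% and 24.2% of all genes, with a median of -0.23. *Slc2a3* fell by 3.15 (edgeR adjusted p = 4.91e-05), from 28.8, 34.5 and 34.8 CPM to 4.06, 3.19, 2.94, 2.71 and 5.12 CPM. In this comparison 9 of 10 T and B cell markers were called lower and 1 higher, with a median of -4.57 on the log2 scale. Their part in the *Slc2a3* difference was not tested. *Pfkfb4* rose by 1.56 (adjusted p = 0.00075). None of 23 was called for genotype in iWAT by edgeR, where *Slc2a3*, *Slc2a4* and *Pfkfb1* came nearest with 1.66, 0.63 and 0.59 on the log2 scale (adjusted p = 0.108, 0.137 and 0.143).

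**Figure D5:**
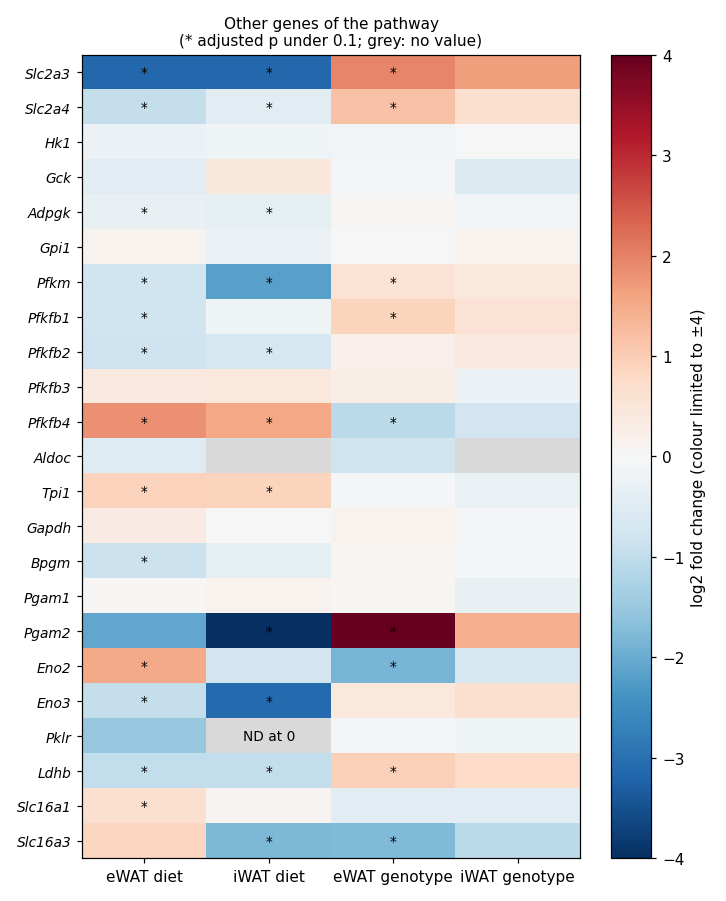
Log2 fold changes of other genes of the pathway (y axis, in pathway order) in 4 comparisons (x axis), with colour limited at 4 in each direction, an asterisk where the adjusted p was under 0.1 and grey where no value is given. *Slc2a3* is at -3.13 and -3.15 on HFD and 1.97 for genotype in eWAT, and *Pklr* is grey for iWAT diet because all ND libraries were at 0.

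Several members are textbook targets of the hypoxia-inducible factor HIF-1, so 16 of its targets outside glycolysis were listed. On HFD in eWAT 1 of 15 tested was called higher and 4 lower, beside 24.8% and 26.9% of all genes. The 1 higher was *Higd1a*, a mitochondrial protein gene (0.57, edgeR adjusted p = 0.0431), which falls outside the rule for named genes and was named after its value was seen. Among the 4 lower were *Ndrg1* (-1.11, edgeR adjusted p = 0.0026), *Vegfa* (-1.55, adjusted p = 0.0048) and *Kdm3a* (-0.63, adjusted p = 0.0052), a stress-responsive gene, an angiogenic factor and a histone demethylase. In iWAT 4 were called higher and 5 lower, beside 25.9% and 24.2% of all genes, among them *Pdk1* (-1.26, adjusted p = 0.00051), which restrains pyruvate oxidation, *Higd1a* (0.91, adjusted p = 0.001) and *Vegfa* (-0.69, adjusted p = 0.0062). For genotype 1 was called in eWAT, where 9.13% of all genes were called higher, *Vegfa* (0.93, edgeR adjusted p = 0.0902), with *Bnip3* at 0.45 and *Mxi1* at -0.37 (adjusted p = 0.12 and 0.14). None was called in iWAT by edgeR, where *Vegfa*, *Ddit4* and *Bnip3l* were at 0.52, -0.99 and 0.26.

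For the 3 members whose group means ranged most, the genes most like them were found among 11411 others with at least 5 CPM, by the root mean square difference of centred log2 CPM over the 25 libraries. For *Hk3*, whose group means spanned 3.52 on the log2 scale, these were *Anpep* (0.46), *Tlr13* (0.48) and *Nceh1* (0.49), against 1.504 for the spread of *Hk3* itself. For *Slc2a1* they were *Rhbdf2* (0.28), *Zfp839* (0.28) and *Ercc2* (0.29), and for *Pkm* they were *Parp1* (0.22), *Mogs* (0.22) and *Dbnl* (0.23), where the members' own spreads were 0.43 and 0.36.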

How the data were processed

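RNA from 25 adipose tissue samples was sequenced as directional mRNA libraries. The authors trimmed reads with cutadapt and aligned them with STAR to GRCm38; the counting program and its use of strand are not given in the sources used here. The deposited tables hold raw read counts per gene and FPKM values that the authors computed from those counts and a cDNA length. Depth was 31.4 to 52.3 M reads on genes (median 42.1).

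Counts were tested with edgeR 4.0.16 (R 4.3.3; TMM, quasi-likelihood F-test, Benjamini-Hochberg over all genes averaging 1 CPM or more), with the 3 groups of a depot in 1 fit and all 25 libraries in 1 fit for comparisons of depots. Genes with an adjusted p under 0.1 were called. SE is the log2 fold change divided by the root of F. CPM are TMM-scaled. Family shares used FPKM and two-sided exact permutation tests. DESeq2 1.42.0 and other filters, scalings, terms and sample sets were alternatives, of which the sets without other-tissue libraries were chosen after seeing the data. These sets left out eWAT WT ND replicate 2 and eWAT Acod1-/- replicate 5 (epididymis), and iWAT WT ND replicates 1 (muscle) and 3 (brown and beige adipocytes). They kept iWAT Acod1-/- replicate 2, which holds epithelial transcripts, and iWAT WT ND replicate 2, then the only library of its group. The latter had the highest T and B cell marker sum of all 25 libraries, 1505 CPM. The test was tried on simulated data. No 2 libraries of a group were copies (lowest chi-square per degree of freedom 33.7 over 42 pairs). Members and lists were chosen with earlier results of these data known. Named genes of other lists are the 3 with the lowest adjusted p in a comparison, beside those whose isoenzyme share is discussed; 1 of them is not reported here. Sequences are RefSeq's.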

Additional observations from a re-analysis of the deposited data

Results flagged for a closer look

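Of 72 sets of 4 or 5 libraries examined, 6 held a library far from the others, where chance gives about 1 in 20. In eWAT of Acod1-/- mice, replicate 5 was far above the other libraries for *Hk3* (18.9 CPM), for the *Hk3* share of hexokinase FPKM (17.8%) and for the *Slc2a1* share of glucose transporter FPKM (10.3%). The same library had the highest macrophage and epididymis marker sums of its group, 2190 and 1060 CPM. *Aldoa* in eWAT Acod1-/- replicate 2 was far above its group at 3255 CPM. In eWAT WT HFD replicate 1, the library with the highest macrophage sum (7496 CPM), the *Eno1* share of enolase FPKM was far below the others (87.05%) and the *Slc2a1* share far above (26.7%). The part of other cells in these values was not tested.

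The effect of diet on *Pkm* differed between depots by a test of the difference itself, with an interaction of 0.90 on the log2 scale (edgeR's quasi-likelihood test, adjusted p = 0.0266). Without iWAT WT ND replicate 3 it was 0.61 and not called. In the same test 9 of 10 T and B cell markers were called higher, and their part was not tested.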

How the results depend on the processing

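*Hk3* was called under all alternatives for diet and genotype in eWAT and for depot in WT HFD. The numbers of members called moved elsewhere, and where no construction is named the cause was not tested. With series as a term the count was 1 for eWAT diet and 0 for eWAT Acod1-/- HFD against ND, iWAT diet and iWAT Acod1-/- HFD against ND. In series 1 alone, with fewer libraries, it was 3 for genotype in either depot. DESeq2's Wald test gave 2 for eWAT genotype, 1 for iWAT genotype, 5 for depot on ND and 2 for the depot by diet interaction. Without the 4 libraries left out for other tissue, it was 2 for eWAT genotype and 1 for eWAT Acod1-/- HFD against ND. In contrasts that use iWAT WT ND this set left replicate 2 alone in that group. Its calls for iWAT diet, iWAT Acod1-/- HFD against ND, depot on ND and the depot by diet interaction therefore say nothing of stability. That set kept iWAT Acod1-/- replicate 2, so that iWAT genotype still held its epithelial transcripts. An adjusted p under 0.05 and no filter on low counts each gave 1 for eWAT Acod1-/- HFD against ND and 1 for depot on ND. Only the groups compared gave 1 for that contrast in eWAT and 0 in iWAT, and at least 1 CPM in every library gave 2 for the depot by diet interaction. Shares called fell to 0 in all 4 comparisons at an adjusted p under 0.05, and to 0 for eWAT diet, iWAT diet and iWAT genotype with shares of counts. In iWAT an exact test over 32 shares can hardly pass 0.05, since its smallest p is 0.0357. The loss at 0.05 in iWAT therefore says nothing of stability.

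Whether libraries of the same replicate number share a mouse is not stated, and the main fits treated all libraries as independent. Correlations of deviations ran from -0.30 to 0.31 over 22 pairs within a depot, 12 of them over 0.1. Between depots they ran from -0.09 to 0.49 over 11 pairs, 5 of them over 0.1. The highest were 0.49 and 0.34, for WT HFD replicates 4 and 1. Libraries of unlike number were not compared, so that pairing was not tested. With the number as a replicate block, the count was 5 for depot on ND, 3 for depot in WT HFD and 2 for either interaction, it was 2 in place of 3 for eWAT diet, where *Slc2a1* was lost, and 0 shares were called in any comparison, where pairs were too few to pass.

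Leaving out each library in turn gave 2 to 4 members for eWAT diet, 1 to 3 for eWAT genotype, 1 to 3 for eWAT Acod1-/- HFD against ND, 0 to 3 for iWAT diet, 0 to 2 for iWAT genotype, 1 to 2 for iWAT Acod1-/- HFD against ND, 0 to 5 for depot on ND, 1 to 1 for depot in WT HFD, 0 to 2 for depot in Acod1-/- HFD, 0 to 2 for the depot by diet and 0 to 1 for the depot by genotype interaction. It gave 0 to 5 shares for eWAT diet, 0 to 4 for eWAT genotype, and 0 to 0 for iWAT diet and iWAT genotype, where so few libraries are left that an exact test over 32 shares can hardly pass, so that these say nothing of stability.

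The iWAT diet fit without other tissue left only replicate 2 of WT ND. Signs turned only for values not called. For iWAT diet these log2 fold changes were *Hk2* at -0.01364 (replicate block), *Pfkl* at 0.07924 (block), 0.00376 (series) and 0.1183 (without other tissue), *Aldoa* at 0.3155 (without other tissue), *Pgk1* at 0.1734 (series) and 0.1745 (without other tissue), and *Eno1* at 0.06797 (block), 0.2058 (series) and 0.04743 (without other tissue). Leaving out 1 library, they ran from -0.1135 to 0.2564 (*Hk2*), -0.3248 to 0.3442 (*Pfkl*), -0.2397 to 0.05838 (*Aldoa*), -0.2515 to 0.1231 (*Pgk1*), -0.3761 to 0.3556 (*Eno1*) and -0.007592 to 0.1864 (*Ldha*). For eWAT genotype they ran from -0.1507 to 0.07008 (*Pfkl*), -0.0369 to 0.1231 (*Pfkp*), -0.1208 to 0.2707 (*Aldoa*), -0.1722 to 0.03731 (*Pgk1*), -0.204 to 0.01804 (*Eno1*) and -0.03835 to 0.1618 (*Ldha*), and for iWAT genotype from -0.3619 to 0.01868 (*Pkm*) and -0.1826 to 0.08616 (*Ldha*).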
